A study of Homo sapiens with 8 samples.

Results

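NKM-1 is an established human myeloid leukemia cell line. Its baseline transcriptome was measured by RNA sequencing in the 4 libraries of cells kept for 48 h with DMSO, the solvent control, out of 8 samples in the series; the others had received the compound SF153 and do not enter any value below. All columns of the 2 tables labelled DMSO were taken. The cells were wild type per the labels, grew in RPMI medium and received no agent that the labels name other than DMSO, so the baseline is that of solvent-treated cells, and a single line stands for 1 leukemia. Libraries 1.1 and 1.2 belonged to batch 1 and libraries 2.1 and 2.2 to batch 2. The values of each batch were also deposited separately, so a batch difference cannot be told apart from a difference in processing. Nothing in the labels says that the libraries of a batch came from separate cultures, so the spread given here may be technical. The RNA was total RNA depleted of ribosomal RNA and primed at random, a preparation that keeps nuclear and unpolyadenylated transcripts.

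The deposited value of a gene is called its signal. It is of the TPM type, meaning that reads are divided by transcript length and by the library total, and the columns summed to between 990815 and 1027119 over 17912 gene rows. Signal may therefore be compared between genes within a library, but its exact scaling and read numbers are unknown. The mean signal reached 1 for 15329 genes, 10 for 8681, 100 for 931 and 1000 for 59. Each library alone had between 15080 and 15217 genes at 1 or more. Over the 15329 genes, any 2 libraries differed by a median of 0.17 to 0.21 on the log2(signal + 1) scale. In signal + 1, 95.1% to 95.8% of these genes lay within 2-fold. The added 1 makes differences of low genes look smaller than they are in signal. Precision rose with level. The median coefficient of variation was 33.8% for genes with a mean signal between 1 and 5, 18.1% between 5 and 10, 10.7% between 10 and 100, and 6.54% from 100 upward. Means are given ± SD over the 4 libraries (n = 4).

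Myeloid cells arise from blood stem cells through progenitors in which a small set of transcription factors, chiefly PU.1, C/EBPα and RUNX1, switches on receptors for myeloid growth factors and the proteins of the azurophil granule. Acute myeloid leukemia cells halt along this route and often keep stem cell genes such as those of the HOXA cluster switched on. MicroRNAs take part as well: they are short RNAs cut from longer host transcripts, and they pair with target mRNAs mainly through the seed, bases 2 to 8 from their 5′ end.

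The microRNA host transcripts of NKM-1 included several that are associated with blood cells. Of 15 host genes listed, 14 had a row and 13 a mean signal of at least 1. MIR223HG, host of the myeloid miR-223, had a signal of 256, 265, 272 and 279 in libraries 1.1, 1.2, 2.1 and 2.2, the order used throughout, and the highest mean of the 14. MIR181A1HG followed at 211.4, 223, 228 and 226, below MIR223HG in every library. The mature sequences that lie inside the highest hosts on the same strand are shown because they are the products these transcripts can give, with the seed in capitals. Sequences and positions are from RefSeq (GRCh38.p14).
hsa-miR-223-3p: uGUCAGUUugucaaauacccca
hsa-miR-181a-5p: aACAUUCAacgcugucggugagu
hsa-miR-181b-5p: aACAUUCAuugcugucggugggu
hsa-miR-142-3p: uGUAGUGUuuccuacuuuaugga
hsa-miR-142-5p: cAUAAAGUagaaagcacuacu
hsa-miR-15a-5p: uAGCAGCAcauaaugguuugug
hsa-miR-16-5p: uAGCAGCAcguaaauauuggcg
hsa-let-7a-5p: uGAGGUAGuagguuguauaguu
hsa-let-7b-5p: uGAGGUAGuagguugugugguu
hsa-miR-155-5p: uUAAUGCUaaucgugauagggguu
hsa-miR-17-5p: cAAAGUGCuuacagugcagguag
hsa-miR-20a-5p: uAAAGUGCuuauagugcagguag

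The miR-223 sequence lies on the plus strand at chrX:66018937-66018958. The miR-181a and miR-181b sequences share the seed ACAUUCA and lie on the minus strand at chr1:198859108-198859130 and chr1:198858925-198858947. MIR142HG, host of both miR-142 arms, of which the 3p arm lies on the minus strand at chr17:58331245-58331267, had 122.2, 124, 137 and 119. DLEU2, host of miR-15a and miR-16 with their shared seed AGCAGCA, had 103, 106, 99.3 and 93.2. The ranges of MIR142HG and DLEU2 did not overlap. MIRLET7BHG, with the let-7 seed GAGGUAG in let-7a and let-7b, had 60.3, 55.6, 79.7 and 63, and MIR155HG, host of miR-155, had 52.9, 60.5, 51.8 and 50.2. These 2 hosts overlapped. MIR17HG, host of miR-17 and miR-20a with the seed AAAGUGC, was lower at 24.6, 26.5, 33.7 and 30.1. The signal of a host gene is that of the long transcript, and the amount of mature microRNA was not measured by it.

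Nuclear protein-coding genes held about as much of the summed signal as all other classes together. Their share was 50.9%, 50.4%, 47.0% and 46.5% in the 4 libraries, and small noncoding RNA genes held 33.9%, 34.3%, 37.8% and 38.5%. The batch 1 and batch 2 values of both classes did not overlap, and the coding share was higher in batch 1 while the small RNA share was higher in batch 2. Mitochondrially encoded genes held 9.51% ± 0.129, long noncoding RNAs 4.16% ± 0.0455 and pseudogenes 1.25% ± 0.0164. Because signal is a share of the library, every other gene is read against these totals.

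**Figure D1:**
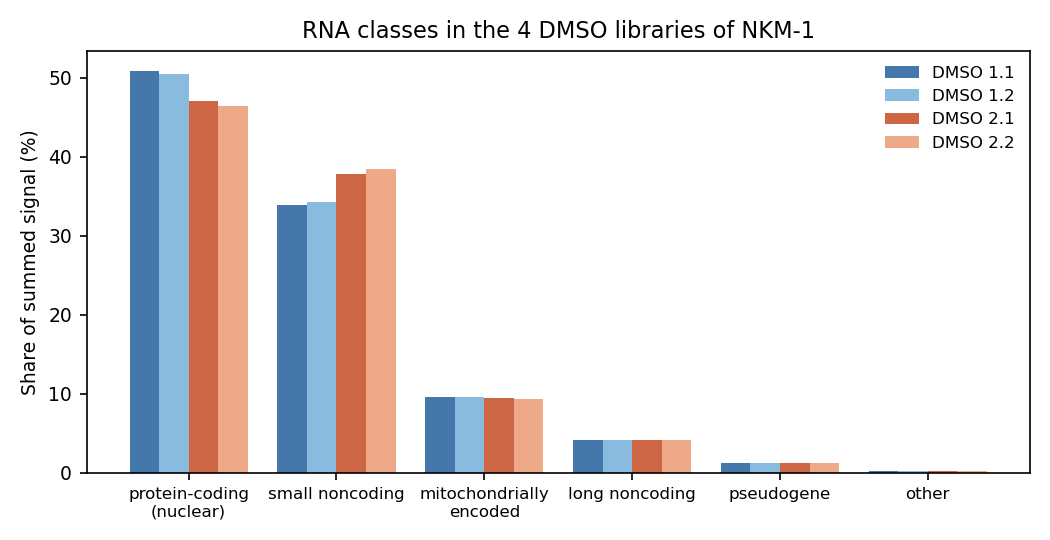
Share of the summed signal (%) held by each RNA class, with 1 bar per DMSO library. Protein-coding genes outside the mitochondrial genome held 46.5% to 50.9% and small noncoding genes 33.9% to 38.5%, with the batch 2 libraries (2.1 and 2.2) lower in the former and higher in the latter.

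A handful of structural RNAs dominated the small noncoding class. RN7SK, the RNA that holds the elongation factor P-TEFb in an inactive complex, had a signal of 115703, 119245, 122390.0 and 142857, or 12.4% ± 1.02 of the total. RN7SL1 and RN7SL2 encode the RNA of the signal recognition particle and are near-identical copies whose reads can be split in different ways, so only their sum is firm, at 159197, 163109, 193276 and 183043. RPPH1, the RNA of ribonuclease P, had 22555, 22935, 29596 and 29028, and RMRP, the RNA of ribonuclease MRP, had 16148, 15019, 11647 and 14381. The RMRP value is that of its ribozyme row. Another RMRP row covers nearly the same positions on the same strand and was not added, so reads may be divided between them. The 2 rows of the copied microRNA gene MIR3648 summed to 12124, 11361, 16523 and 15356. They lie at chr21:8208473-8208652 and chr21:8986999-8987178, whereas the mature microRNA has 21 bases. Whether this signal came from the microRNA gene or from another transcript over the same positions was not tested. SCARNA2, a guide RNA of Cajal bodies, had 4332, 4153, 3931 and 4176. The 10 highest genes of each library, which include RN7SK and both RN7SL copies, held 39.7%, 40.1%, 43.2% and 43.8% of the total.

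Among long noncoding RNAs, MALAT1, a transcript of nuclear speckles, had a signal of 13362, 13791, 14575 and 14471, which was 1.39% ± 0.0377 of the total, where the whole class held 4.16%. NEAT1, the scaffold of paraspeckles, had 992, 999, 1002 and 1050.1. PURPL, a p53-regulated transcript, followed at 658, 679, 706 and 708 and PVT1, the neighbour of MYC, at 493, 479, 530.2 and 538. These 4 kept the same order in every library. Host genes of small nucleolar RNAs were also high, with SNHG29 at 457 ± 19, ZFAS1 at 358 ± 10.2, GAS5 at 349 ± 14 and SNHG5 at 299.8 ± 37.1. HOTTIP and HOTAIRM1, transcribed from the ends of the HOXA cluster, were at 5.93 ± 0.536 and 5.54 ± 2.42.

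The mitochondrial genome contributed 15 rows. MT-CO1, MT-CO3 and MT-CO2, the mitochondrially encoded subunits of cytochrome c oxidase, had mean signals of 26958 ± 778, 19214 ± 488 and 10286 ± 46 and did not overlap one another. MT-ND6, the coding gene read from the other strand of the circle, had 588 ± 28.9, the lowest of the mitochondrial coding genes. The mitochondrial ribosomal RNA genes had lower means in these libraries. The RNA had been depleted of ribosomal RNA, so their signal may not give their level in the cells. The effect of the depletion on them was not tested. MT-RNR1 had 176, 745, 246 and 207, and MT-RNR2 had 185, 674, 221 and 187. Library 1.2 stood above the other 3 in both. The nuclear coding genes with the highest signal were EEF1A1 at 3909 ± 207, an elongation factor, followed by RPL10 at 2873 ± 193, RPS18 at 2177 ± 291 and TPT1 at 2104 ± 155. Of the 10 highest, 8 encode ribosomal proteins.

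Lineage markers were read beside the myeloid label of the line, from lists chosen with earlier results of these data known. All 17 general myeloid markers with a row (of 18 listed) had a mean signal of at least 1. So did 11046 of the 11731 nuclear coding genes, so that count alone does not set the list apart. The median of the list was 74.2, and that of the nuclear coding genes was 18.2. MPO, the peroxidase of azurophil granules (chr17:58269856-58280935 on GRCh38, as are the gene positions below, from GENCODE release 29), had 763, 756, 726 and 717, above 99.4% of coding genes. ITGB2, the common β2 integrin chain, had 489, 483, 451 and 439. LAIR1, an inhibitory collagen receptor, had 241, 234, 254 and 266, and LYZ, lysozyme, had 259, 254, 193 and 177. MPO exceeded ITGB2 and ITGB2 exceeded LAIR1 in every library, while LAIR1 and LYZ overlapped and exchanged places between batches. CD33, the sialic acid receptor used to identify myeloid leukemia, had 68.4, 68.9, 76.3 and 83.3. TYROBP and FCER1G, the signalling adaptors of many myeloid receptors, had 57.7 ± 7.64 and 38.3 ± 8.36.

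**Figure D2:**
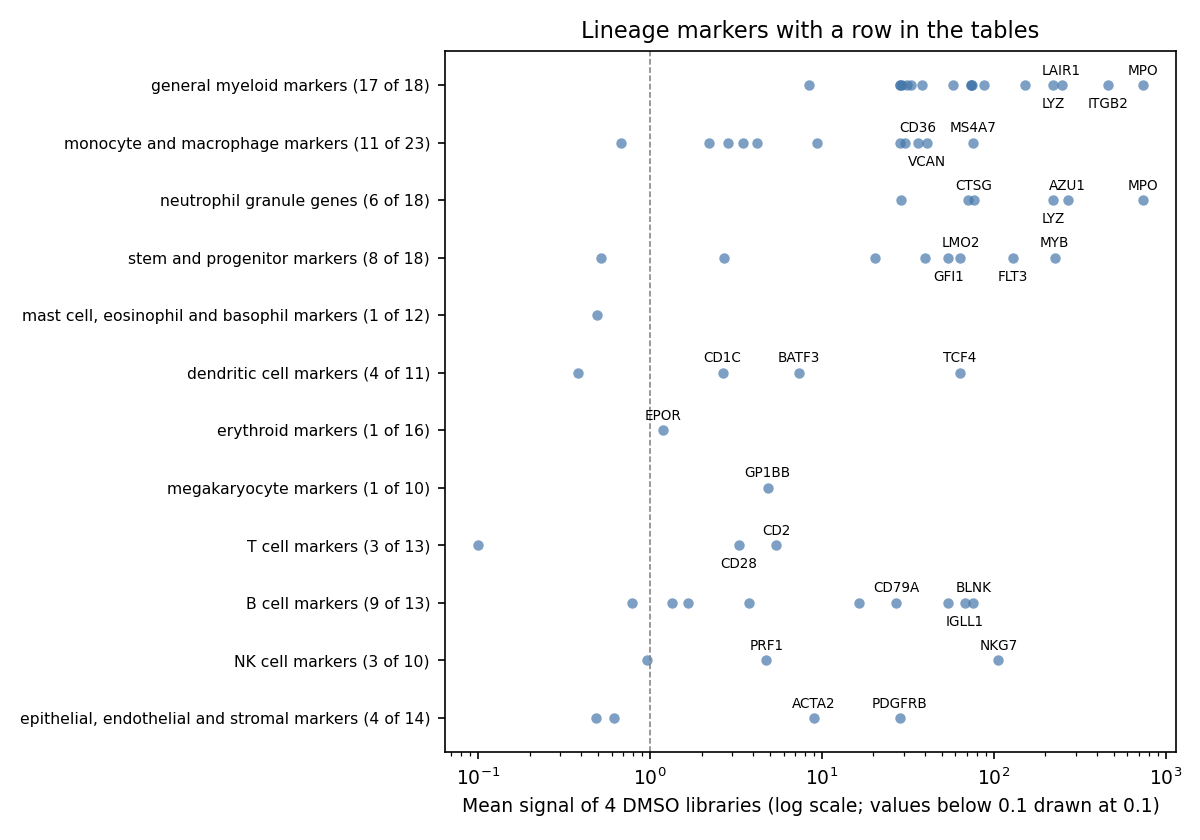
Mean signal over the 4 DMSO libraries (log scale) of each listed lineage marker with a row, 1 point per gene and 1 line per list, with the number of members with a row out of all listed. Points right of the dashed line have a mean of at least 1, as have 11046 of all 11731 nuclear coding genes. The general myeloid, granule, erythroid and megakaryocyte lists lie wholly right of it, the last 2 with 1 gene each. The highest point is MPO at 740.3.

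Of 18 listed granule genes, 6 had a row, and all 6 encode proteins found in azurophil granules, the first to form during neutrophil maturation. AZU1, azurocidin, had 306, 280.8, 247 and 246. CTSG, cathepsin G, had 86, 87.6, 64 and 70, PRTN3, proteinase 3, had 79.8, 76.2, 65 and 64.3, and PRSS57, a further serine protease of these granules, had 34.8, 29.4, 27.8 and 23.8. All 6 granule genes with a row, MPO and LYZ included, were lower in both batch 2 libraries than in both batch 1 libraries, as were 22.4% of the 15329 genes that reached a mean signal of 1, and none of the 6 was called in the batch test described at the end. The remaining 12, which include ELANE and the genes of later specific and tertiary granules such as LTF and MMP9, were not analysed here.

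Monocyte and macrophage markers were mixed. MS4A7, a membrane protein of monocytes and macrophages, had 78.5, 77.7, 72.6 and 75.2. VCAN, the proteoglycan versican, had 39.1, 38.8, 41.6 and 43.6, CD36, the scavenger receptor, had 36.5, 42, 32.4 and 34.5, and CCR2, the receptor for monocyte chemoattractants, had 30.6, 36.1, 28.2 and 26.9. MS4A7 lay above the others in every library, whereas CD36 overlapped VCAN and CCR2. FCGR1A, the high-affinity IgG receptor, had 34, 30.7, 32 and 16.8, with library 2.2 lowest. CD14, the endotoxin coreceptor that defines classical monocytes, averaged 0.676 ± 0.241, and MARCO, a scavenger receptor of macrophages, 2.2 ± 0.80. CX3CR1 and SIGLEC1, also on this list, averaged 9.44 ± 0.642 and 2.85 ± 1.56. Of 23 listed markers, 11 had a row, 10 of these reached 1 and 5 reached 10. Their median was 9.44, lower than the 18.2 of all nuclear coding genes.

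Stem and progenitor genes included MYB at 224, 226, 228 and 226, a transcription factor of proliferating progenitors, with an SD of 1.59. FLT3, a receptor tyrosine kinase of early progenitors, had 133, 134, 126 and 126. LMO2, a bridging protein of stem cell transcription complexes, had 64.1 ± 5.84, GFI1, a repressor required for granulocyte development, 54.5 ± 1.27, and MSI2, an RNA-binding protein, 20.4 ± 5.41. BAALC averaged 0.52 ± 0.397. HOXA9 and MEIS1, also on this list, are given with their families below. Of the 18 listed, 10 were not analysed here, CD34 and KIT among them.

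Few markers of other blood lineages had a row, apart from those of B cells. The erythroid and megakaryocyte lists were represented by EPOR, the erythropoietin receptor, at 1.2 ± 0.481 (1 of 16 with a row) and GP1BB, a platelet glycoprotein, at 4.84 ± 0.765 (1 of 10). The list for mast cells, eosinophils and basophils had 1 of 12 with a row, PRG2, at 0.494 ± 0.267. Among T-cell genes CD2 had 5.44 ± 0.453 and CD28 3.3 ± 0.92, and CD247, the zeta chain of the T-cell receptor, was listed at 0 in 3 libraries and at 0.123 in library 1.1. TCF4, a factor of plasmacytoid dendritic cells that other cells also use, had 63.4 ± 2.09. It was the highest of 4 dendritic cell markers with a row out of 11, and the others were lower, with BATF3 at 7.38 ± 1.22, CD1C at 2.65 ± 0.904 and ZBTB46 at 0.38 ± 0.298.

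Of 13 listed B-cell genes, 9 had a row and 8 reached 1. BLNK, an adaptor of the B-cell receptor, had 70.3, 76.3, 82.8 and 75.9. IGLL1, part of the surrogate light chain, had 69.3, 74.2, 64.5 and 64.2. Of the signalling chains of the B-cell receptor, CD79B had 59.3, 51.9, 53.5 and 51.2 and CD79A had 26.7, 27.5, 29.4 and 24.7. CD79A lay below the other 3 in every library. RAG2, a recombinase subunit, had 13.7, 17.3, 16.4 and 18.6, whereas its partner RAG1 averaged 0.784 ± 0.109. PAX5, the factor that commits cells to the B lineage, averaged 1.66 ± 0.904, with library 2.1 at 3.02 and the other 3 between 1.18 and 1.25, and CD22 averaged 1.34 ± 0.935. The summed signal of the B-cell list was 249.5 ± 7.34, beside 2394 ± 109 for the general myeloid list. IGLL1 and CD79A were thus present with little PAX5. Whether the values come from a few cells or from all cells cannot be told apart in bulk RNA.

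NKG7, a protein of cytotoxic granules, had 120.4, 116, 101 and 88.8, while PRF1, perforin, had 4.75 ± 0.674 and NCAM1, the CD56 antigen, 0.964 ± 0.521. The other 7 of 10 natural killer markers were not analysed here. Of 14 epithelial, endothelial and stromal markers, 4 had a row; PDGFRB, a growth factor receptor usual in stromal cells, had 31.9, 26.1, 27.5 and 28.4 and ACTA2, smooth muscle actin, 9.73, 8.14, 7.82 and 10.3. EGFL7, an endothelial factor, averaged 0.619 ± 0.147 and CLDN4, an epithelial tight junction protein, 0.485 ± 0.569, both means below 1.

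RUNX1, IKZF1, IRF8 and STAT6 had the highest signal in the transcription factor lists. Of 170 listed factors and cofactors, 100 had a row, 92 reached a mean signal of 1 and 61 reached 10. RUNX1, the DNA-binding part of core binding factor (chr21:34787801-36004667), had 247, 246, 250.2 and 259.9. That was 79.4% ± 2.45 of the summed signal of the RUNX genes and CBFB together. RUNX2 had 11.9 ± 1.38 and RUNX3 5.27 ± 1.19. CBFB, the partner of RUNX1, had 48.6, 56, 49 and 38.3. IKZF1, Ikaros, had 196, 192, 201 and 199, or 93.1% ± 1.24 of its family. CEBPA, the C/EBP factor of granulocyte and monocyte progenitors (chr19:33299934-33302564), had 91.5, 91.4, 84.5 and 83.1, above CEBPD at 26.1 ± 1.02, CEBPG at 17.9 ± 1.33 and CEBPB at 13.8 ± 1.47 in all 4 libraries. SPI1, which encodes PU.1, had 72.9, 75.4, 77.2 and 71.1 and overlapped ELF1 at 79.8, 77.5, 75.6 and 72.5 and ETS2 at 64.4, 71.1, 73.6 and 71. None of these ETS factors stood first by more than the spread between libraries.

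**Figure D3:**
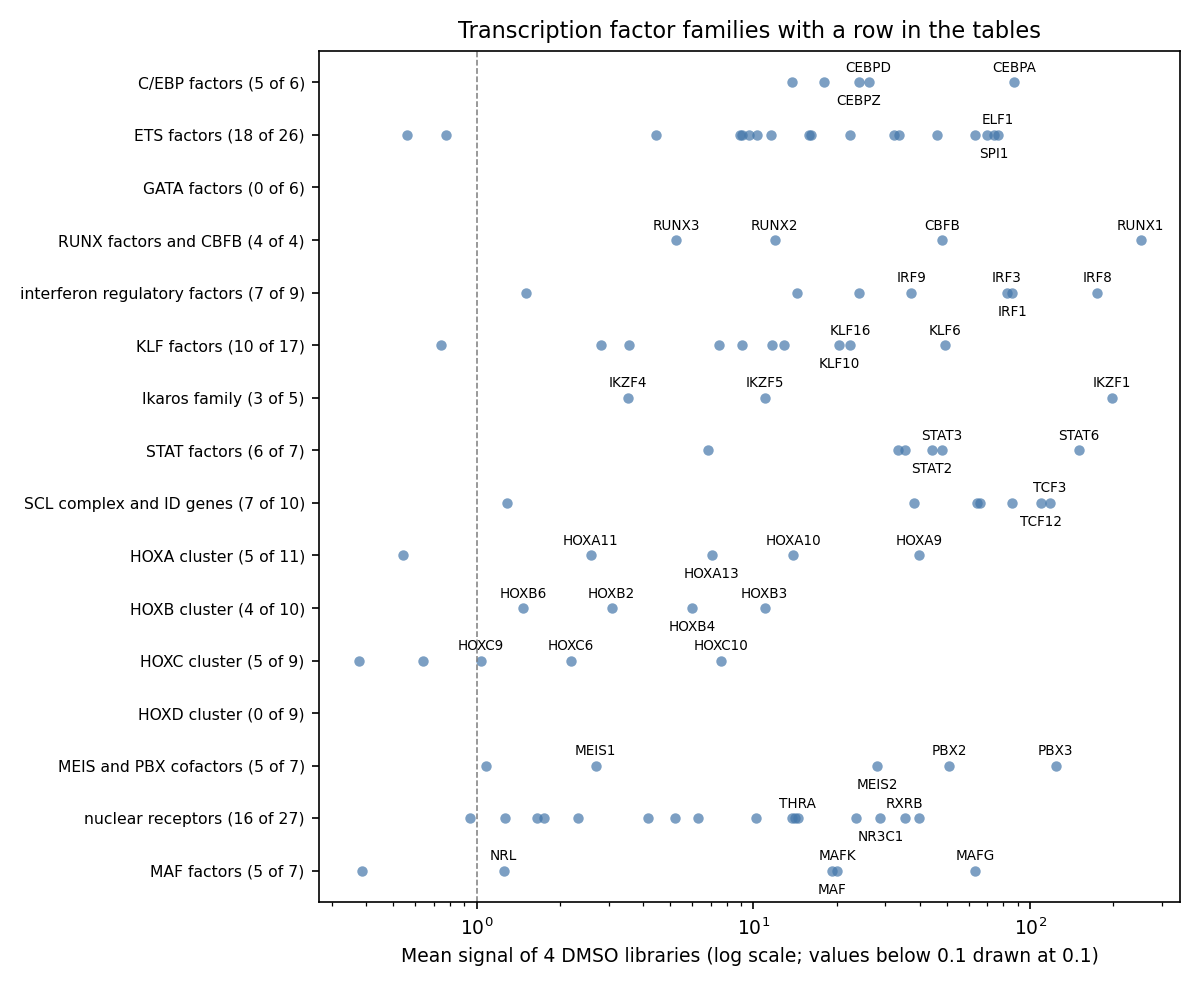
Mean signal over the 4 DMSO libraries (log scale) of listed transcription factors with a row, 1 point per gene and 1 line per family, with the number with a row out of all listed. RUNX1, IKZF1, IRF8 and STAT6 lead their families, and the GATA and HOXD genes were not analysed here.

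IRF8, the interferon regulatory factor of monocyte and dendritic cell progenitors, had 157, 164, 191 and 186, the highest of the 7 interferon regulatory factors with a row. IRF1 and IRF3 had 86.1 ± 1.5 and 82.4 ± 7.29. STAT6, the mediator of interleukin 4 signals, had 151, 142, 145 and 163, against 49.9, 43.3, 52.8 and 46.1 for STAT3 and 8.46, 7.57, 6.25 and 5.19 for STAT5A. STAT6 lay above every other STAT in each library. KLF6 had 49.1 ± 3.05, whereas KLF4, a factor of monocyte maturation, had 3.56 ± 0.586 and KLF2 0.745 ± 0.431. In the group of SCL partners, the E protein gene TCF3 had 105, 113.7, 136 and 117 and a second one, TCF12, had 89.5, 89.7, 121 and 137, while LYL1 had 86.3 ± 3.85 and LDB1 65.8 ± 3.04. The 6 GATA genes listed were not analysed here.

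Within the HOXA cluster 5 of 11 genes had a row, and their order did not change between libraries. HOXA9 (chr7:27162435-27175180), a regulator often kept on in myeloid leukemia, had 35.8, 43.2, 42.6 and 37. HOXA10 had 15.9, 12.7, 16.2 and 10.9 and HOXA13 7.7, 9.14, 5.92 and 5.5. HOXA11 followed at 2.34, 3.14, 2.44 and 2.41 and HOXA7 at 0.723, 0.793, 0.306 and 0.347. Neighbours in this order did not overlap, and the ratio of HOXA9 to HOXA10 was 2.92 ± 0.572. HOXB3 averaged 11 ± 2.98, HOXB4 6.01 ± 0.425 and HOXC10 7.64 ± 1.64, and the 9 HOXD genes were not analysed here. Of the HOX cofactors, PBX3 had 119, 129, 119 and 129 and MEIS1 only 3.18, 1.92, 3.67 and 2.01, whereas its relative MEIS2 had 28, 31.4, 25.2 and 27.3. Of the nuclear receptors, RXRB, a retinoid X receptor, had 37.5, 34.6, 36.2 and 32.8. NR3C1, the glucocorticoid receptor, had 28.8 ± 4.46 and RARA, the retinoic acid receptor α, 13.8 ± 1.77.

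Among surface receptors, 133 of 255 listed genes had a row and 116 reached a mean signal of 1. Their median was 8.68, lower than the 18.2 of all nuclear coding genes. CSF1R, the receptor for macrophage colony-stimulating factor (chr5:150053291-150113372), had 152, 139, 162 and 159.5, the highest of 22 receptor tyrosine kinases with a row. FLT3 came second and lay below CSF1R in each library. The third, INSR, the insulin receptor, had 39.3, 41.3, 46 and 52.8, and IGF1R 25.1 ± 2.76. Of 58 receptor tyrosine kinases listed, 36 were not analysed here.

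The cytokine receptors were led by IL17RA, a chain of the interleukin 17 receptor, at 125, 118, 122.1 and 113. CSF3R, the receptor for granulocyte colony-stimulating factor, had 85.6, 84.2, 68 and 63.2. Both batch 2 libraries lay below both batch 1 libraries, as for 22.4% of the 15329 genes that reached a mean signal of 1. The gene was not called in the batch test described at the end (limma adjusted p = 0.407). The receptors IFNGR1, for interferon γ, and IL6R, for interleukin 6, had 67.9 ± 4.21 and 61.5 ± 2.36. IL7R, the interleukin 7 receptor usual in lymphoid cells, had 70.5, 70.4, 50.2 and 68.2. The chains of the receptors for granulocyte-macrophage colony-stimulating factor and interleukin 3 were lower. CSF2RB, their common β chain, had 5.23 ± 0.487, and the α chains CSF2RA and IL3RA had 8.39 ± 3.83 and 4.02 ± 0.522 after summing the X and Y rows of these pseudoautosomal genes, between which signal was divided differently in each library. The common signal transducer IL6ST, which IL6R requires, had 0.686 ± 0.232.

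Of 22 chemokine receptors, 5 had a row. CXCR4, which retains cells in the bone marrow, had 46.4, 43.6, 44.2 and 45.5, above CCR2 and above CCR1 at 14.1 ± 1.0. CX3CR1 had 9.44 ± 0.642 and CXCR2, the interleukin 8 receptor of neutrophils, 2.22 ± 0.073. TLR2 led the Toll-like receptors at 47, 40.7, 45.9 and 49.3. TLR1 at 26.2 ± 1.96 and TLR6 at 23.2 ± 1.07, its partners in binding lipopeptides, and TLR4 at 23.3 ± 1.48, the endotoxin receptor, overlapped one another. LY96, the TLR4 coreceptor also called MD-2, had 11.9 ± 2.4.

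ITGA4, the α chain of VLA-4, had 108, 111.7, 108 and 113.6 and overlapped ITGAL, the α chain of LFA-1, at 105, 90.7, 118 and 107. ITGAM and ITGAX, the α chains of the myeloid β2 integrins, were lower at 31.2 ± 4.76 and 35 ± 1.4. Of the β chains, ITGB7 had 101, 101.9, 104 and 103 and ITGB1 38.4, 36.9, 33 and 32.3, both being known partners of α4, and ITGB2 held 77% ± 0.658 of the summed β chain signal. FCGRT, the neonatal Fc receptor, had 60.7, 63.1, 54.8 and 51.8, and the 3 FCGR2 copies, whose sequences are close, summed to 67.7, 59, 54.3 and 52.2. LILRA2, an activating leukocyte receptor, had 66.6, 71.3, 78.8 and 64 and SIGLEC6 33.8, 33.9, 34 and 31.8. LILR and SIGLEC genes have close copies, so the division among them is uncertain. TNFRSF10B, a receptor for the death ligand TRAIL, had 37.6, 31.5, 49.9 and 48.5, and TNFRSF1A, a TNF receptor, 37, 33.8, 42.8 and 38.6. Of receptors coupled to G proteins, ADGRE5, ADGRE2 and PTGER4 were highest at 61.3 ± 9.42, 53.6 ± 4.62 and 52.1 ± 3.79, with overlapping ranges.

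Many enzymes exist as isozymes encoded by separate genes, and 43 such families, which include alternative subunits, were examined for which member was used. In 38 families at least 2 members had a row. The highest and second members did not overlap in 29 of them and overlapped in 9, and in 16 the ratio of their signals was 2 or more. In 4 families 1 member had a row, PKM and EEF1A1 among them. The arginases and nitric oxide synthases were not analysed here.

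**Figure D4:**
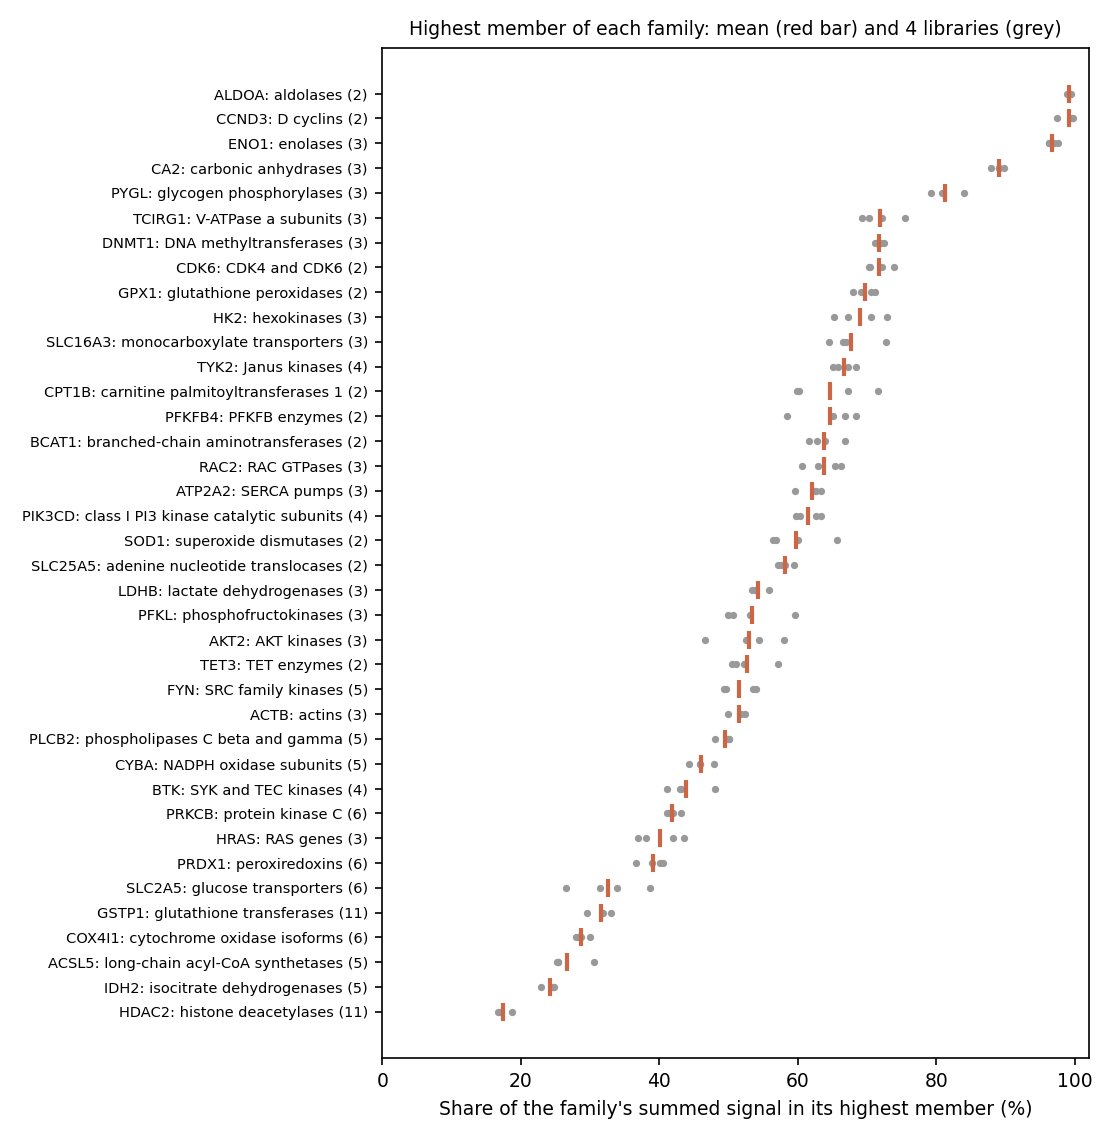
Share of a family's summed signal (%) held by its highest member, with the 4 DMSO libraries as grey points, their mean as a red bar and the number of members with a row in brackets. ALDOA, CCND3 and ENO1 held nearly all of the signal of the members with a row, at 99.2%, 99.1% and 96.8%, and HDAC2 held the least, at 17.4%.

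In glycolysis, HK2, the inducible hexokinase, had 14.2, 14.7, 13.4 and 14.3 and HK1 6.86, 5.25, 6.36 and 5.42, a ratio of 2.41 ± 0.369. PFKL, the liver phosphofructokinase, had 130.1, 112.3, 110.0 and 113.7, PFKP, the platelet form, had 84.7, 104, 105 and 95.9, and PFKM, the muscle form, had 4.81 ± 1.06. ALDOA had 377 ± 40.3 and ENO1 366 ± 22.9. LDHB, whose subunit favours lactate oxidation, had 269, 271, 250.3 and 229 and LDHA 233, 233, 197 and 195. LDHB was higher in all 4 libraries, though the ranges of the pair overlapped. PYGL, the liver glycogen phosphorylase, exceeded PYGB by a factor of 4.62 ± 0.786. SLC16A3, which exports lactate, had 98.2, 97.3, 92.9 and 84.5 and SLC16A1 40.8, 35.2, 27.3 and 37.6. Of glucose transporters, SLC2A5, the fructose transporter, SLC2A1 and SLC2A9 had 24.5 ± 4.9, 20.7 ± 3.04 and 17.5 ± 2.0, and SLC2A1 overlapped both of the others.

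For mitochondrial fatty acid uptake, CPT1B, the muscle isoform, had 40.6, 35.2, 52 and 46.8 and CPT1A, the liver isoform, 27, 23.6, 20.6 and 22.8. CPT1B adjoins CHKB and forms readthrough transcripts with it, so its value may hold signal of both. GPX1, a glutathione peroxidase, had 238, 237, 214 and 229 and GPX4, which reduces lipid peroxides, 113, 95.9, 89.2 and 102.4. Of the membrane subunits of the phagocyte NADPH oxidase, CYBA had 321, 329, 278 and 261 and CYBB had 251, 235, 216 and 217, above the cytosolic NCF4 at 50.7 ± 4.68 and NCF1 at 16.4 ± 3.24. NCF1 has close pseudogene copies. CA2, a carbonic anhydrase, had 95.4, 87.2, 78.1 and 79.5, or 89% ± 0.797 of its family. TCIRG1, the a3 subunit of the vacuolar proton pump, had 271, 272, 259.6 and 269, exceeding ATP6V0A1 by a factor of 3.93 ± 0.809.

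Among signalling enzymes, PIK3CD, the leukocyte PI3 kinase δ, had 152, 148, 156 and 149, PIK3CG, the γ form, 67.6, 66.8, 60.4 and 59.7, and the ubiquitous PIK3CB and PIK3CA 19.4 ± 3.93 and 11.5 ± 2.89. PIK3CD exceeded PIK3CG by a factor of 2.38 ± 0.18. TYK2 had 113, 124, 116 and 122.1, 3.76 ± 0.349 times JAK1, and JAK2 had 27.2 ± 1.41. JAK3, the kinase paired with the common γ chain, averaged 0.421 ± 0.12 although that chain, IL2RG, had 29.2 ± 1.1. FYN led the SRC family at 63.1, 58, 58.6 and 62.7, with LYN at 22 ± 2.53. BTK and SYK overlapped at 63.2 ± 5.02 and 55.2 ± 3.47. PRKCB led protein kinase C at 153, 148, 156 and 153, PLCB2 the phospholipases C at 173, 182, 188 and 182, and RAC2, the blood-cell RAC, had 219.9, 203, 177 and 191 against 81.1, 93.3, 87.1 and 76.1 for RAC1. HRAS and NRAS overlapped at 19 ± 2.89 and 16.4 ± 1.42.

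In the cell cycle and chromatin families, CDK6 had 163, 164, 171 and 164, 2.54 ± 0.214 times CDK4, and of the D cyclins CCND3 had 65, 71.1, 63.8 and 60.3 and CCND1 averaged 0.559 ± 0.724, while the third was not analysed here. DNMT1, the maintenance methyltransferase, exceeded DNMT3A by a factor of 3.7 ± 0.166. TET3 and TET2 overlapped at 37.9 ± 1.55 and 34.1 ± 3.28. HDAC2 and HDAC10 were nearly equal at 108 ± 6.25 and 108 ± 8.69, with overlapping ranges.

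The stability of the baseline was examined by comparing batch 2 with batch 1, 2 libraries against 2, with limma on log2(signal + 1) and Benjamini-Hochberg adjustment over the 15329 genes that reached a mean signal of 1. It called 10 genes, 0.0652% of those tested, 6 higher and 4 lower in batch 2, and 1341 genes had an unadjusted p below 0.05. Of 438 listed members tested, 2 were called, RPPH1 and RN7SL2. With 1 library left out, the count of calls was between 0 and 3. Such a fit leaves 1 batch with a single library, whose spread is assumed to be that of the other batch.

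**Figure D5:**
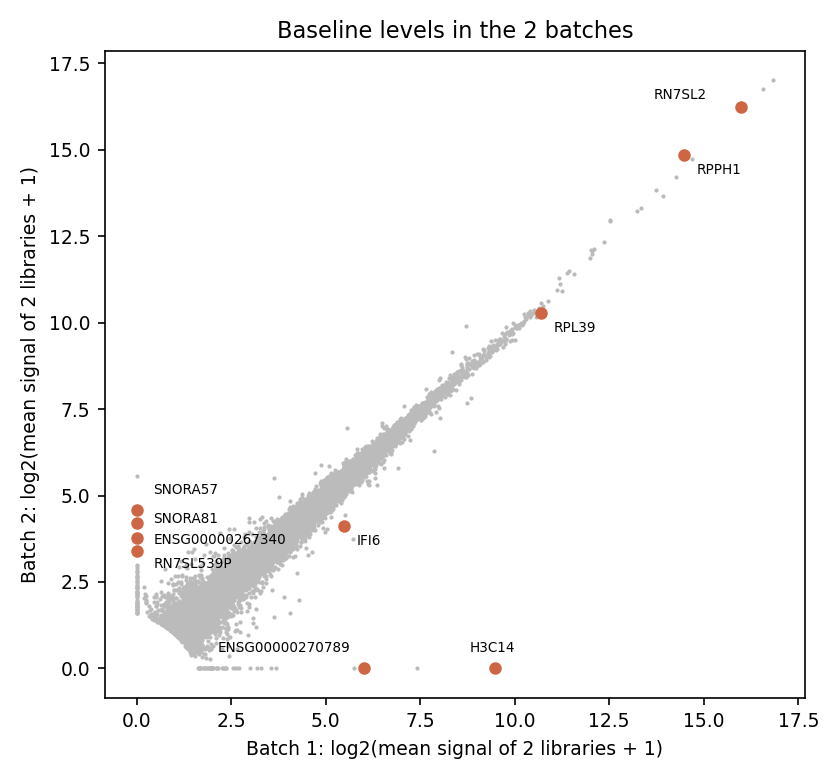
Mean signal of batch 1 (x axis) against batch 2 (y axis), both as log2(mean of 2 libraries + 1), for the 15329 genes tested, with the 10 called genes in red. Most points follow the diagonal, and 6 called genes lie at 0 in 1 batch.

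RPPH1 had 22555 and 22935 in batch 1 and 29596 and 29028 in batch 2, a log2 difference of 0.37 (SE 0.02, limma adjusted p = 0.0171), and remained called in 5 of 12 alternative analyses. RN7SL2 differed by 0.25 (SE 0.02, limma adjusted p = 0.0497), but part of its signal may belong to RN7SL1, and it remained called in 2 of 12. IFI6, an interferon-induced mitochondrial protein, had 45.4, 41.9, 16.3 and 16.5, and fell by 1.36 on the log2 scale (SE 0.11, limma adjusted p = 0.0497) from batch 1 to batch 2. It remained called in 1 of 13 alternative analyses. RPL39, a ribosomal protein, had 1667, 1678, 1221 and 1269.6, and fell by 0.43 on the log2 scale (SE 0.04, limma adjusted p = 0.0497). That call remained in 2 of 13. The other 6 were at 0 in both libraries of a batch. The small nucleolar RNAs SNORA81 and SNORA57 were listed at 0 in batch 1 and had 19.2 and 15.5, and 15.7 and 30.0, in batch 2, and RN7SL539P, a copy of the signal recognition particle RNA, had 0, 0, 8.69 and 10.3. Among genes without a symbol, ENSG00000267340 had 0, 0, 11.3 and 14.3 and ENSG00000270789 had 40.8, 85.9, 0 and 0. H3C14, a histone H3 gene, had 363, 1066, 0 and 0, while its copy H3C15 had 778, 54.5, 935 and 977. The sum of the pair was 1140.5, 1121, 935 and 977, which differed far less between batches than H3C14 alone.

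Genes of the interferon response were then read in the same comparison, after the value of IFI6 had been seen. IRF9, part of the complex that type I interferon activates, had 44.6, 43.1, 31.5 and 29.7. Both batch 2 libraries lay below both batch 1 libraries, as for 22.4% of the genes tested, but the gene was not called by limma (adjusted p = 0.345). SIGLEC1, a sialic acid receptor that interferon induces, had 4.26, 4.13, 1.36 and 1.66, with an adjusted p of 0.433. The batches overlapped for STAT2 at 39.7, 51.9, 43.4 and 41.4 and for IRF7 at 27.3, 23, 20.7 and 25.1. A cause of the batch difference was not tested.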

How the data were processed

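Gene-level values of 4 DMSO libraries were used. Total RNA was depleted of ribosomal RNA with DNA oligonucleotides and RNase H, and strand was kept by dUTP marking, per the labels' protocols. Per the submitters' processing notes, the tools were CASAVA 1.8.2, edgeR, STAR and Salmon, in roles not stated, with GRCh38 as the build. The deposited signal is described by the file names as both CPM and TPM, its column sums were not fixed, and its further scaling and gene filter are not given in the sources used here. Depth is unknown, so no counting interval was computed.

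Levels are the deposited signal without rescaling, with rows that share a symbol summed. RMRP and SIGLEC5 were exceptions, for which only the ribozyme row and the protein-coding row were used. A ± is the SD over 4 libraries. Levels are descriptions without a test, since 4 libraries cannot reach an exact p of 0.05. Batches were compared with limma 3.58.1 (R 4.3.3), a variance prior that follows intensity and log2(signal + 1) values, for genes with a mean of at least 1. A call needed an adjusted p (Benjamini-Hochberg) under 0.05, and differences of low genes are understated by the pseudocount of 1. These p-values measure only the spread between libraries. Positions are from GENCODE release 29, which matched 17223 of 17889 identifiers without their version, or RefSeq.

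The 86 gene lists (864 symbols, 485 with a row) and the members were chosen with earlier results of these data known. The rule for naming allowed every list member, the 10 highest genes of each RNA class and the called genes with the largest batch differences. Some genes that this rule allows are not reported here. Alternatives changed the pseudocount, filter, scaling, variance model and libraries used.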

Additional observations from a re-analysis of the deposited data

Results flagged for a closer look

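Of the 230 genes named, 14 had 1 library set apart from the other 3 by a gap so large against the range over the 4 libraries that it passed Dixon's 95% limit. Chance flags about 1 in 20 groups of this kind, so such a number says little about any of them.

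Library 1.2 was apart for 6 genes. MT-RNR1 had 745 there against 176 to 246 elsewhere, and MT-RNR2 674 against 185 to 221. HOXA11 had 3.14 (others 2.34 to 2.44), IL2RG 30.9 (28.5 to 28.9), KLF6 53.6 (47.2 to 48.0) and DNMT3A 40.6 (45.9 to 46.3).

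Library 2.1 was apart for 5 genes. PAX5, the B-lineage factor, had 3.02 there against 1.18 to 1.25 elsewhere, IL7R 50.2 against 68.2 to 70.5, and CCND1 1.64 against 0.132 to 0.236. CDK6 had 170.8 (163 to 164) and GAS5 369.8 (339.7 to 344). Library 2.2 was apart for HOXB4 at 5.37 (6.18 to 6.27) and SIGLEC6 at 31.8 (33.8 to 34.0). CD247 had 0.123 in library 1.1 and was listed at 0 in the others.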

How the results depend on the processing

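The count of 10 genes called between batches became 3 with a pseudocount of 0.1, 0 with no filter, 0 without the intensity trend and 3 without mitochondrial and small noncoding genes. Without library 1.1 it was 3, without 1.2 it was 2, and without 2.1 or 2.2 it was 0. It lay between 7 and 12 under the other filter and the other 3 scalings. With the library number as a replicate block the count was 0, with 1188 genes at an unadjusted p below 0.05. Deviations of same-numbered libraries had r = 0.031 across genes, so no pairing was seen over the genes as a whole. Such a correlation cannot exclude a pairing that touches few genes. Without small noncoding genes in the total, the mitochondrial share became 14.9%, the nuclear coding share 76.3% and the share of the 10 highest genes 15.9%. The number of genes at a mean signal of 1 or more lay between 11000 and 16775 under its alternatives. Leaving out a library gave 15290 to 15332 genes, mitochondrial shares of 9.47% to 9.55%, coding shares of 48.0% to 49.5% and shares of the 10 highest genes of 41.0% to 42.4%. Of the means of named genes, 209 of 215 moved by more than 1 SD once mitochondrial and small noncoding genes were removed and the rest rescaled, and the mean of MT-CO2 moved under rescaling to a fixed total. Taking whole classes out of the total raises the share of each remaining gene by arithmetic. The changed shares and the moved means after such removal thus follow from the calculation. The causes of the other shifts were not tested.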

Other observations

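Some rows changed sharply between libraries. The unnamed gene ENSG00000286054 had 0, 203, 0 and 205 in libraries 1.1, 1.2, 2.1 and 2.2. ENSG00000286091 had 197, 0, 169 and 0, so that exactly 1 of them had signal in each library. Whether they are related was not tested. RNU2-1, a gene of the spliceosomal U2 RNA, had 339.9 in library 1.2 and was listed at 0 in the other 3. For CD99, a surface glycoprotein gene shared by the X and Y chromosomes, the X row had 70.6, 67.7, 70.0 and 8.40 and the Y row 11.1, 11.6, 16.8 and 72.6, while their sum was 82.2 ± 3.22. For CD99 the division between the rows thus varied more than the sum.

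IGLC1, an immunoglobulin light chain constant gene, had 35.1, 44.2, 22.1 and 46.8. Among pseudogenes, copies of SMG1 and STAG3 were high, with SMG1P1 at 224 ± 12.5 and STAG3L3 at 197.6 ± 7.81, and reads of such copies may be shared with their parent genes.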
